A study of Rattus norvegicus with 8 samples.

Results

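Neuropeptides of the retina are described here through 9 precursor genes, *Gal*, *Npy*, *Sst*, *Vip*, *Tac1*, *Penk*, *Adcyap1*, *Cck* and *Crh*, and through *Tacr1*, the receptor of the tachykinin substance P. They comprise every spot that is not a control and carries one of these names, and all 10 genes were found among the 26334 gene names of the array. RNA came from retinas of female Lister Hooded rats, 8 weeks old, taken 2 weeks after surgery on the right optic nerve. In the crushed group (ONC, n = 4), the nerve was squeezed with forceps 3 mm behind the optic disc, for 10 s. In the sham-operated controls (CTR, n = 4), the nerve was exposed but the forceps stayed unclosed. Each retina filled 1 dye channel of an Agilent array, giving 8 channels on 4 arrays, and the number of arrays limits the precision. The comparison asks which peptide genes differ in the retina after axons of the retinal ganglion cells (RGCs) are injured.

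Names of the channels need care. The labels give every array a CTR retina in Cy5 and an ONC retina in Cy3, both of the same number, so dye and condition cannot be told apart. The methods describe a different layout, in which both retinas of an array belong to 1 group. RGC markers were therefore looked at first, since crush is known to kill these cells. Of 17 listed markers, 15 were on the array and 12 passed the filter on dim and flagged spots. Log2 levels of these 12 were taken less each gene's own mean over the 8 channels. Their median was 1.12 in CTR2, 1.08 in ONC1, 1.12 in ONC2 and 1.28 in ONC3. The same median was -1.49 in CTR1, -0.98 in CTR3, -0.88 in CTR4 and -1.18 in ONC4. Loss of these cells would lower the markers in crushed retinas, but in 6 of the 8 channels the order was the opposite of the labels: high in ONC1, ONC2 and ONC3, low in CTR1, CTR3 and CTR4. Only CTR2 and ONC4 had the level their labels call for. The labels look reversed for those 6 channels, and the files used here do not settle which retina each channel held. CTR and ONC therefore mean channels so labeled throughout, and all directions are between labels and not tied to injury. As CTR2 and ONC4 differed from the others of their label, each comparison was repeated without these 2 channels. In whole retina, fewer cells of a type and less RNA per cell cannot be told apart.

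Neuropeptides are cut from larger precursor proteins, mostly at pairs of basic residues, stored in dense-core granules and released to act on receptors that couple to G proteins. In the retina most of them are made by subsets of amacrine cells, the interneurons of the inner retina, and they modulate signaling over longer times and distances than glutamate or GABA. Several of them, among them galanin, neuropeptide Y, vasoactive intestinal peptide and PACAP, are known to be induced in sensory neurons outside the retina when their axons are cut.

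Probes show which part of a precursor mRNA the array reads. The lines that follow give 4 probes that lie in a coding region, 5′ to 3′, at chr1:205937849-205937908 (minus strand) for *Gal*, chr4:78043176-78043235 (plus) for *Npy*, chr4:32651286-32651345 (plus) for *Tac1* and chr5:17509637-17509696 (minus) for *Penk*, all on the rn4 assembly that the array files use. Capitals mark, in *Tac1*, a glycine codon and the pair of basic codons after it, where substance P is cut and amidated, and, in *Penk*, a pair of basic codons and the tyrosine codon that opens an enkephalin.
Gal: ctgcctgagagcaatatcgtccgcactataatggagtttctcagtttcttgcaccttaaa
Npy: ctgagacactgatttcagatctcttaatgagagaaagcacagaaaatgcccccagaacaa
Tac1: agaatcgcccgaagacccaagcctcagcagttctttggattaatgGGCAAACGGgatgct
Penk: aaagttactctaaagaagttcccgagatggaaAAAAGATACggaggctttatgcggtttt
Each of these 60-base probes reports the precursor mRNA as a whole, and none measures a mature peptide.

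None of the 10 genes was too dim to use by the filter applied. They were covered by 14 probes on 59 spots, and 50 spots of all 14 probes passed. Brightness was judged as foreground over local background, which had to reach 2 in every channel. All 59 spots reached it, and those that did not pass carried an outlier flag. By means over the spots of a probe, *Adcyap1* came closest to that limit. Its single spot had a ratio of 2.52 in CTR1 and at most 7.77, in ONC2. One of the 2 *Crh* probes was the next dimmest, at 3.59 in CTR4 as a mean over its 10 spots. The lowest ratio of a single spot of this *Crh* probe was 2.3, below that of *Adcyap1*. In the same probe, 2 single values were not well above background by the scanner software's own mark. The other *Crh* probe ranged from 7.74 to 20.3, the *Tacr1* probe from 11.0 to 33.0, and a *Tac1* probe reached 455. No spot of these genes was saturated. Ratios of different probes depend on how each hybridizes and say nothing of which mRNA is more abundant.

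**Figure D1:**
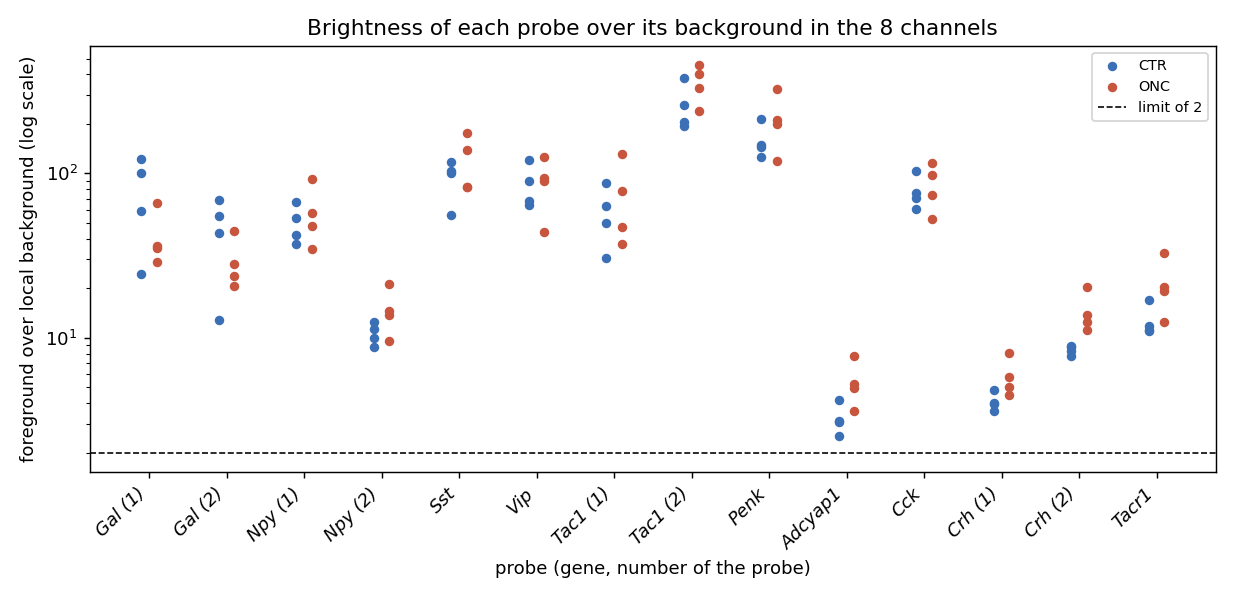
Foreground over local background (log axis) of each of the 14 probes in the 4 CTR and 4 ONC channels, as means over the spots of a probe; the dashed line is the limit of 2. All points lie above the line, and those of Adcyap1, down to 2.52, are nearest to it.

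After filtering, 16422 genes were compared between labels by limma on log2 levels, and 0 of the 10 genes were called at an adjusted p under 0.05, beside 80 genes, or 0.487%, of all genes tested. At an unadjusted p under 0.05 there were 2 of them (*Tacr1* and *Vip*), while 18.3% of all genes, 3001 in number, had such a p. With the array as a replicate block, the unadjusted p by limma was 0.0663 for *Vip* and 0.0335 for *Gal*. In that fit 31% of all genes were under 0.05. By sign, 5 of the 10 genes were higher and 5 lower in ONC. Their median log2 fold change was -0.02, and the median over all genes was -0.01. As the members went both ways, these medians do not describe single genes. *Gal* had the widest span over the channels, and *Tacr1* was the only one whose labels did not overlap.

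*Gal* encodes the precursor of galanin. Taken from CTR1 through CTR4, its log2 levels, relative to the median of each channel, were 0.996, -0.92, 1.75 and 1.92. From ONC1 through ONC4 they were -0.41, -0.70, -0.15 and 1.37. High channels were CTR1, CTR3, CTR4 and ONC4, low ones CTR2, ONC1, ONC2 and ONC3, and the labels overlapped. These are the same channels that part the RGC markers, with the opposite order: *Gal* was high where the markers were low. The marker *Nefm*, a neurofilament subunit, was at 2.82 in CTR2 and from 2.88 to 2.97 in ONC1 to ONC3, against -0.21, 0.11, -0.13 and -0.36 in CTR1, CTR3, CTR4 and ONC4. The part that RGC number has in the *Gal* level was not tested, and since the channels fall into separate clusters no correlation is given.

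Between labels the *Gal* mean was 0.94 ± 1.30 (SD, n = 4) in CTR and 0.03 ± 0.93 (SD, n = 4) in ONC. ONC over CTR, the log2 fold change came to -0.91 (standard error 0.66, adjusted p = 0.514 by limma), a difference smaller than the spread between retinas of a label. Only 0.317% of all genes had a larger absolute difference. ONC was lower on 3 of 4 arrays, with differences of -1.41, 0.22, -1.90 and -0.55 on arrays 1 to 4. Without CTR2 and ONC4, the log2 fold change was -1.98 (standard error 0.26, adjusted p = 0.0244 by limma), and *Gal* was the 1 gene of the 10 called, beside 383 genes or 2.33% of all. With 3 channels a label, the exact permutation test cannot give a p under 0.10. The interval with all channels ran from -2.39 to 0.58, and without the 2 channels from -2.58 to -1.37. As these channels were set aside for their RGC markers, and *Gal* follows the same channels, this call depends on that choice.

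Both *Gal* probes gave the same picture. The probe printed above ranged from -1.40 in CTR2 to 1.56 in CTR4, and the second probe, repeated on 10 spots, from -0.47 in ONC2 to 2.28 in CTR4. Their separate log2 fold changes were -0.80 and -1.01, and their levels, each less its mean, differed by a root mean square of 0.16. Among the 8 spots of the repeated probe that passed, the SD within a channel was between 0.20 and 0.32. That SD covers error between spots of 1 array only and not the variation between retinas.

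By the same measure, 3 of 12176 other genes with a symbol were nearest to *Gal* over the 8 channels: *Ecel1* at a root mean square difference of 0.19, *Ucn* at 0.26 and *Ifi27l2b* at 0.26. *Ecel1* encodes an endopeptidase known to be induced in damaged neurons, *Ucn* the peptide urocortin of the corticotropin-releasing family, and *Ifi27l2b* belongs to an interferon-inducible family. *Ecel1* was at -3.05 in CTR2 and from -3.01 to -2.55 in ONC1 to ONC3, and between -1.15 and -0.64 in the other channels. *Ucn* was at -4.02 in CTR2 and from -3.82 to -3.13 in ONC1 to ONC3, and between -1.35 and -0.87 in the others. Between labels neither was called, with adjusted p of 0.527 for both by limma. As they were picked for their likeness to *Gal*, no test of them without CTR2 and ONC4 is given. No other gene of the 10 spanned as much as 1 log2 unit over the channels, so likeness was sought for *Gal* alone.

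**Figure D2:**
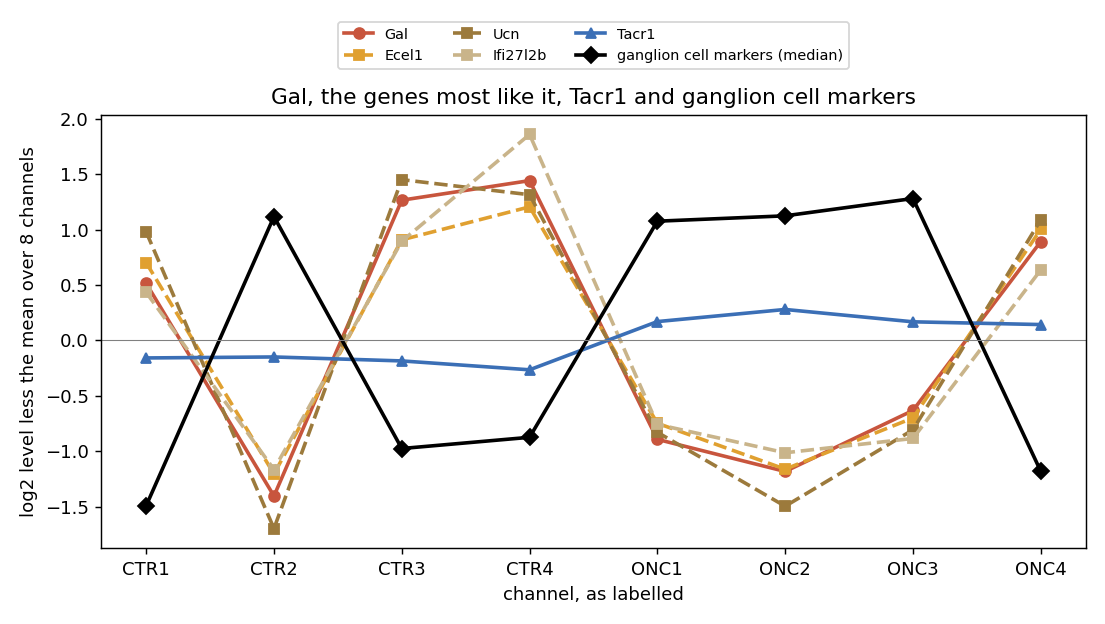
Log2 level less the mean over the 8 channels for Gal, the 3 genes nearest to it, Tacr1 and the median of 12 ganglion cell markers; each point is a channel as labeled. Gal and its 3 neighbors are low in CTR2, ONC1, ONC2 and ONC3, where the markers are high, while Tacr1 parts CTR from ONC.

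**Figure D3:**
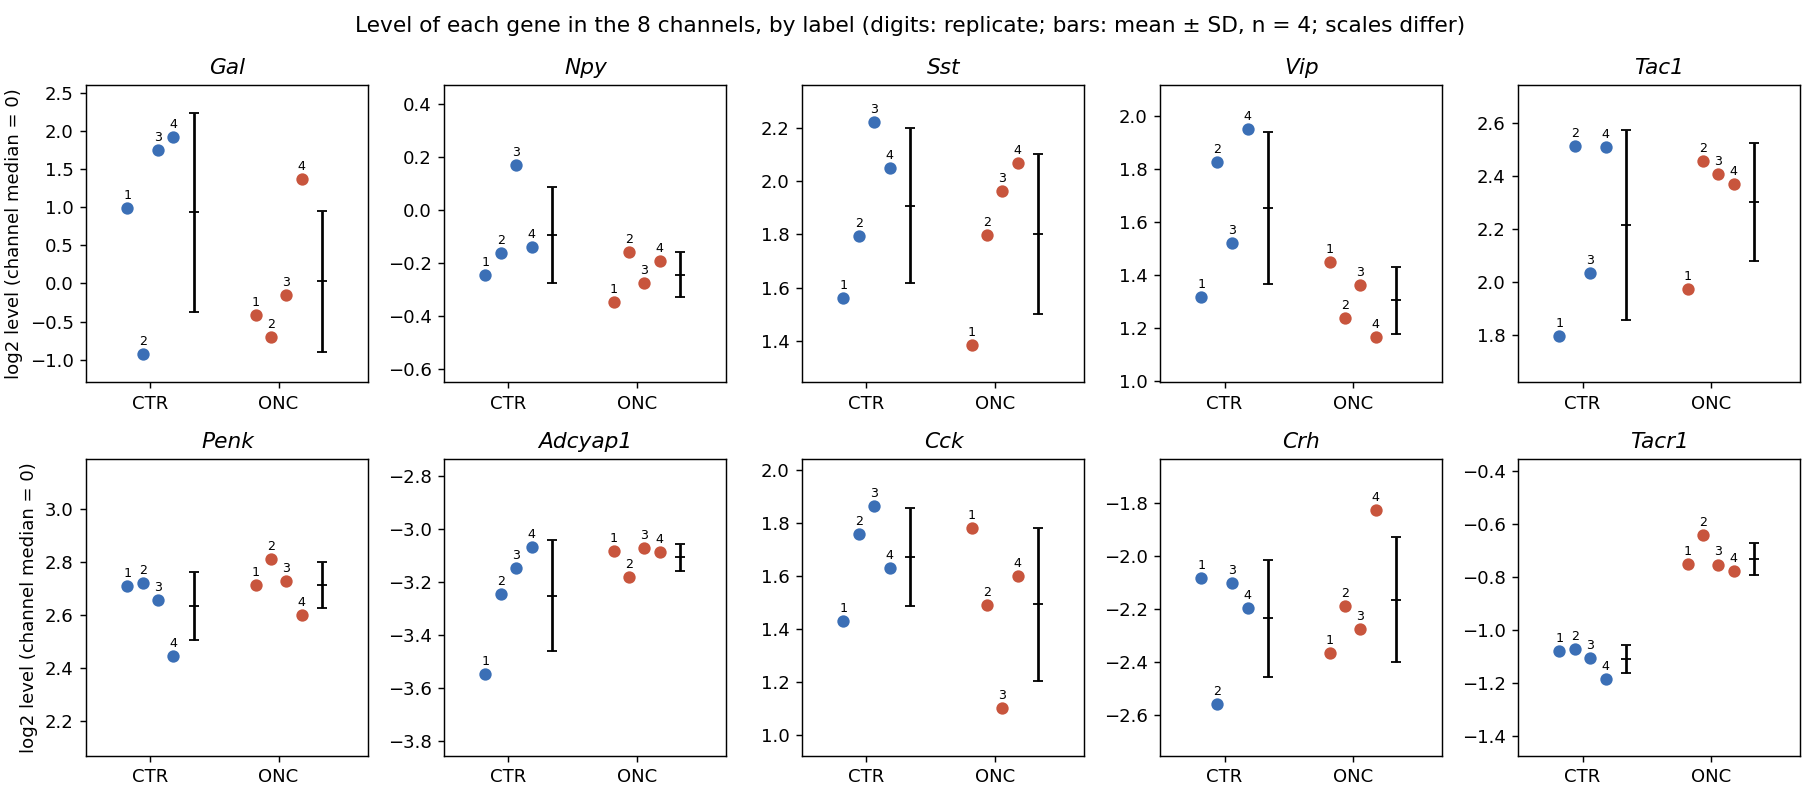
Log2 level of each of the 10 genes (vertical axes, relative to the channel median, with a scale of its own in each panel) in the CTR and ONC channels, numbered by replicate, with mean ± SD (n = 4). Gal splits within each label, and Tacr1 is the one gene whose labels do not overlap.

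*Tac1* encodes the precursor of substance P and neurokinin A, ligands of tachykinin receptors made by amacrine cells. From CTR1 through CTR4 it was at 1.80, 2.51, 2.04 and 2.51, and from ONC1 through ONC4 at 1.97, 2.46, 2.41 and 2.37. The lowest channels were those of array 1 in either label, and the labels overlapped widely. Its log2 fold change was 0.09 (standard error 0.18, adjusted p = 0.854 by limma). The 2 probes differed: the one printed above gave -0.06 and spanned 0.34 to 1.51, whereas the second gave 0.24 and spanned 3.25 to 3.81.

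*Vip* encodes vasoactive intestinal peptide, a marker of several amacrine types. Its levels were 1.32, 1.83, 1.52 and 1.95 from CTR1 through CTR4, and 1.45, 1.24, 1.36 and 1.16 from ONC1 through ONC4. CTR2, CTR3 and CTR4 were above every ONC channel, and CTR1 lay among the ONC channels. The difference was -0.35 (standard error 0.145, unadjusted p = 0.0392 and adjusted p = 0.248 by limma), with ONC lower on 3 of 4 arrays. With the array as a replicate block, the unadjusted p by limma was 0.0663. An exact permutation test gave p = 0.0857. Without CTR2 and ONC4 it was -0.25 (standard error 0.17, adjusted p = 0.413).

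*Adcyap1* encodes PACAP, a peptide of the same family as *Vip* that is known to protect retinal neurons. It was measured at -3.55, -3.25, -3.15 and -3.07 from CTR1 through CTR4, and at -3.08, -3.18, -3.07 and -3.09 from ONC1 through ONC4. The ONC channels lay close together near the top of the CTR range, and CTR1, where the spot is dimmest, was lowest. Between labels the log2 fold change was 0.15 (standard error 0.11, adjusted p = 0.535 by limma). With each channel only centered on its median, without loess, it was 0.65 and called (adjusted p = 0.0138), so the size for this dim spot rests on the normalization. That setting called 3128 of all 16422 genes, 70.4% of them higher in ONC.

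*Npy* encodes neuropeptide Y, a peptide of amacrine cells and, after injury, of glia. It was at -0.25, -0.16, 0.17 and -0.14 from CTR1 through CTR4, and at -0.35, -0.16, -0.28 and -0.19 from ONC1 through ONC4. Apart from CTR3 the channels of both labels shared 1 narrow range. The log2 fold change was -0.15 (standard error 0.11, adjusted p = 0.504 by limma), and the separate probes gave -0.04 for the one printed above and -0.26 for the other. The probe with 10 spots thus showed more of a difference than the single spot, in the same direction.

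*Sst* encodes somatostatin, which in the retina comes from sparse, widely branching amacrine cells. Levels were 1.56, 1.79, 2.23 and 2.05 from CTR1 through CTR4, and 1.38, 1.80, 1.96 and 2.07 from ONC1 through ONC4. The labels overlapped, and array 1 was lowest in both, as for *Tac1*. The log2 fold change was -0.11 (standard error 0.18, adjusted p = 0.822 by limma), ONC was higher on 2 of 4 arrays, and the sign turned when CTR3 or ONC1 was left out, so no direction can be given for *Sst*.

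*Penk* encodes proenkephalin, the precursor of the opioid enkephalins. At 2.71, 2.72, 2.65 and 2.45 from CTR1 through CTR4, and 2.71, 2.81, 2.73 and 2.60 from ONC1 through ONC4, it had the narrowest span of the 10, 0.37, and the labels overlapped. Its log2 fold change was 0.08 (standard error 0.09, adjusted p = 0.707 by limma). ONC was higher on 4 of 4 arrays, yet by as little as 0.002 on array 1, and one sign on all arrays was seen for 39.3% of all genes, as for *Penk* and *Tacr1* here.

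*Cck* encodes cholecystokinin, found in amacrine cells. Its levels were 1.43, 1.76, 1.86 and 1.63 from CTR1 through CTR4, and 1.78, 1.49, 1.10 and 1.60 from ONC1 through ONC4. ONC3 was the lowest channel and the labels overlapped. A log2 fold change of -0.18 was found (standard error 0.16, adjusted p = 0.594 by limma).

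*Crh* encodes corticotropin-releasing hormone, which marks other amacrine types. It stood at -2.08, -2.56, -2.10 and -2.20 from CTR1 through CTR4, and at -2.37, -2.19, -2.27 and -1.83 from ONC1 through ONC4. CTR2 was its lowest and ONC4 its highest channel, and the log2 fold change was 0.07 (standard error 0.15, adjusted p = 0.854 by limma). Without those 2 channels it was -0.15, and the 2 probes disagreed in sign, at -0.18 for the dimmer probe and 0.32 for the brighter. No direction can be given for *Crh*.

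*Tacr1* encodes the neurokinin-1 receptor, which binds substance P and is found in the retina on subsets of amacrine, bipolar and ganglion cells. Levels from CTR1 through CTR4 were -1.08, -1.07, -1.11 and -1.19. Those from ONC1 through ONC4 were -0.75, -0.64, -0.75 and -0.78. All ONC channels lay above all CTR channels, the single case of no overlap among the 10 genes, beside 12.5% of all genes. Channels CTR2 and ONC4 sat with their labels here, unlike in *Gal* and the RGC markers. Since the labels give each condition its own dye, a dye effect of the probe and an effect of condition cannot be told apart by label in this gene. The RGC marker median was high in both channels of array 2 (1.12 in each) and low in both of array 4 (-0.88 and -1.18). *Tacr1* was higher in the ONC channel by 0.43 and 0.41 on those arrays, and by 0.33 and 0.35 on arrays 1 and 3. Whether *Tacr1* follows the dye or the state of the retina was not tested.

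The *Tacr1* mean was -1.11 ± 0.05 (SD, n = 4) in CTR and -0.73 ± 0.06 (SD, n = 4) in ONC, a difference larger than the spread within either label. This gave a fold change of 0.38 in log2 (standard error 0.07), with ONC higher on 4 of 4 arrays by 0.33 to 0.43. An exact permutation test over the 70 assignments gave two-sided p = 0.0286, the smallest it can give. The adjusted p by limma over all genes was 0.0602, so *Tacr1* missed the threshold, ranking 181 by p. With the array as a replicate block, as the labels pair the retinas, its adjusted p was 0.0342 and it was called, along with 1221 genes or 7.44% of all. Without CTR2 and ONC4 the log2 fold change was 0.41 (standard error 0.09, adjusted p = 0.0615). By the criterion of the methods, a linear fold of 1.30 passed the threshold of 1.14 that its own variability sets, and *Tacr1* was the 1 gene of the 10 to meet test and threshold, beside 499 genes or 3.04% of all. In *Tac1*, the precursor of its ligand, the labels overlapped and the interval ran from -0.33 to 0.51. Whether the difference in *Tacr1* exceeds that in *Tac1* was not tested.

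Variability of *Tacr1* between retinas was small. REV, the interval estimate of the coefficient of variation defined in the methods, was 7.87% in CTR and 5.41% in ONC for *Tacr1*, against medians over all genes of 25.3% and 21.9%. Part of that gap is set by the formula, whose correction is 1.06 for the 9 spots of *Tacr1* and 2.15 for a gene with 1 spot, as 81.6% of the genes have. *Gal* lay at the other end with 66.2% and 82.7%, which became 37.3% without CTR2 and 23.8% without ONC4. REV was higher in CTR than in ONC for 7 of the 10 genes, beside 58.3% of all genes. On its 9 spots that passed, the *Tacr1* probe had an SD within a channel of 0.16 to 0.26.

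**Figure D4:**
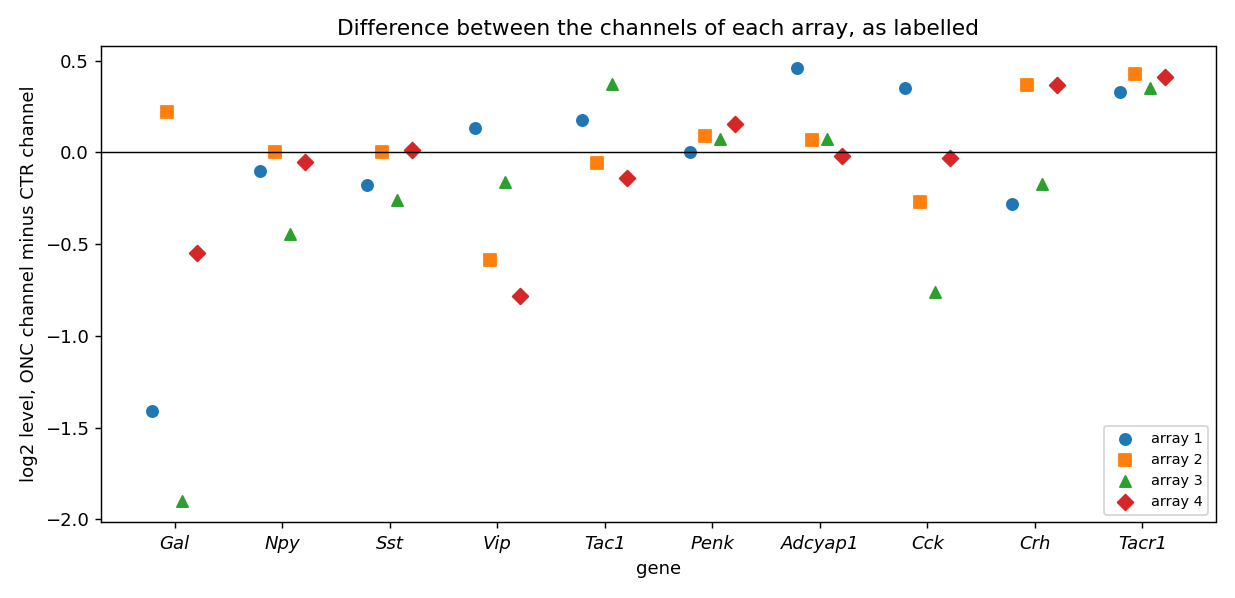
Log2 level of the ONC channel minus that of the CTR channel on each of the 4 arrays, for the 10 genes. Tacr1 lies between 0.33 and 0.43 on every array, whereas Gal ranges from -1.90 to 0.22.

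**Figure D5:**
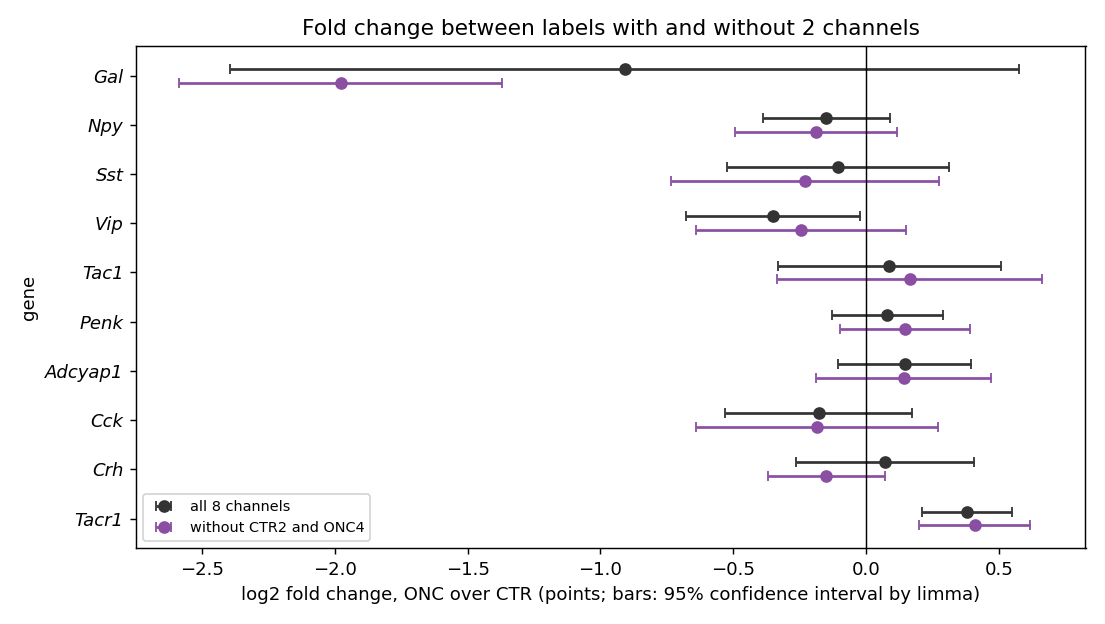
Log2 fold change of ONC over CTR with its 95% confidence interval by limma, for all 8 channels and without CTR2 and ONC4. The interval of Gal excludes 0 without these channels but not with them, and that of Tacr1 lies above 0 in both.

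Promoter sequence was examined for the cAMP response element, a motif through which several peptide genes are known to respond to neuronal activity. RefSeq windows on GRCr8, from 250 bases before to 50 after the annotated start, were at hand for 7 of the genes: *Gal*, *Npy*, *Sst*, *Vip*, *Tac1*, *Adcyap1* and *Tacr1*. The full motif TGACGTCA, on either strand, lay in 1 of them (*Sst*) and in 1.83% of all 33469 windows. Its shorter core TGACGT, which the full motif contains, lay in 3 (*Sst*, *Vip* and *Tacr1*) and in 7.94% of all. The stretches around it are shown with the motif in capitals, at chr11:90461508-90461565 for *Sst*, where it begins at base 3 of the annotated transcript, at chr1:44470343-44470428 for *Vip*, beginning 97 bases before the start, and at chr4:116478508-116478593 for *Tacr1*, beginning 69 bases before it, all on the plus strand.
Sst: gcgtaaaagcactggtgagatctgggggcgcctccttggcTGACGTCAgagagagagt
Vip: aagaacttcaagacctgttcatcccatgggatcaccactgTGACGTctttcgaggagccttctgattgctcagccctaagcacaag
Tacr1: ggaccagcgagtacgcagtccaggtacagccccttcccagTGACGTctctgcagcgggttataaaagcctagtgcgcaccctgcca
Their log2 fold changes were -0.11, -0.35 and 0.38, none was called, and whether they differ from one another was not tested. A match of letters is a description and not evidence of a bound site.

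Other genes of peptide signaling were summarized from lists. Of 41 further precursors, 25 passed the filter and 0 were called. By sign 12 were higher and 13 lower, and their log2 fold changes had a median of 0.00, beside -0.01 for all genes. Its 3 largest differences were *Ucn* at -1.02, *Npw*, a ligand of neuropeptide B and W receptors, at -0.44 and *Gnrh1*, gonadotropin-releasing hormone, at 0.34.

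Of 25 receptors for these and related peptides, 13 passed and 12 did not, among them *Galr1*, *Galr3*, *Adcyap1r1*, *Npy2r* and *Tacr2*. None was called, 9 were higher and 4 lower, and the median log2 fold change was 0.06. The largest was *Sstr1*, a somatostatin receptor, at 0.37 (standard error 0.10, adjusted p = 0.0999 by limma). It ranged from -2.71 to -2.44 in the CTR channels and from -2.33 to -2.07 in the ONC channels, without overlap. No overlap was seen in 12.5% of all genes, and dye and condition cannot be told apart by label here either. *Tacr3*, the receptor of neurokinin B, was at 0.06, *Oprl1*, the nociceptin receptor, at 0.25, and *Npy4r*, the pancreatic polypeptide receptor, at -0.23.

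All 17 genes for peptide processing and granules passed the filter, 10 being higher and 7 lower with a median of 0.15. None of them was called, and 3 were with the array as a block, a fit that called 7.44% of all genes. Those 3 were also the largest differences. *Ptprn*, a membrane protein of dense-core granules, ranged over 1.88 to 2.41 in the CTR and 0.93 to 1.68 in the ONC channels, and its log2 fold change was -0.81 (standard error 0.18, adjusted p = 0.0737, and 0.0297 with the block, by limma). *Furin*, a protease that cuts precursors at basic residues, ranged over 0.96 to 1.50 in the CTR and 1.65 to 1.83 in the ONC channels, with 0.52 (adjusted p = 0.0831, and 0.0332 with the block). *Pam*, the enzyme that amidates peptides such as substance P, overlapped slightly, at -0.45 (adjusted p = 0.130, and 0.0342 with the block). *Ptprn* was also called without CTR2 and ONC4, at -1.01 (adjusted p = 0.0411), but these were its lowest CTR and its highest ONC channel, so that call depends on the choice of channels. Among 10 peptidases that degrade peptides, 6 passed with a median of 0.14 and 0 called, the largest being *Ece1* at 0.20, *Prep* at 0.20 and *Ace* at 0.18. Without CTR2 and ONC4 their median was -0.02, with *Ece1* at -0.03, *Prep* at 0.20 and *Ace* at 0.13.

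Cell type markers give the setting. Of 20 amacrine markers, the cells that make most of these peptides, 14 passed, 8 higher and 6 lower, at a median of 0.04, and 0 were called, or 2 with the array as a block, beside 7.44% of all genes. The glycine transporter *Slc6a9* was at -0.41 (standard error 0.12, adjusted p = 0.124, and 0.0345 with the block, by limma), *Tfap2a* at 0.58 and *Calb2* at 0.40. The median level of the 14 lay between -0.09 and 0.12 in every channel, though its genes went both ways. *Calb2* followed the split of the RGC markers, at 5.62 in CTR2 and 5.002 to 5.66 in ONC1 to ONC3, against 3.97 to 4.66 in the other channels. The RGC markers, 11 higher and 1 lower (*Gap43*, at -0.07), had a median of 1.14 with 0 of 12 called. No test of these markers without CTR2 and ONC4 is given, since these channels were set aside for their levels. *Pou4f2*, *Slc17a6* and *Nefm* were the largest, at 2.06, 1.78 and 1.47, higher in ONC by label and so opposite to a loss of ganglion cells after crush.

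Remaining marker lists showed 0 calls in the comparison of all channels. Of 8 bipolar cell genes 7 were higher, the log2 fold changes having a median of 0.20, led by *Prkca* (0.36), *Vsx1* (0.36) and *Grm6* (0.27). Without CTR2 and ONC4, *Vsx1* turned to -0.13, while *Prkca* (0.31), *Grm6* (0.34) and the median (0.15) kept their sign. Of 12 photoreceptor genes 4 were higher and 8 lower, with a median of -0.26, with *Pde6h* (-0.39) and *Sag* (-0.38) among the largest. Müller cell genes, 2 higher and 4 lower, had a median of -0.16 and went both ways in *Glul* (0.58), *Slc1a3* (-0.57) and *Vim* (-0.41). Among 6 microglial genes 1 was higher, *Cx3cr1* (0.39), and the median was -0.35, led by *P2ry12* (-0.69), *Aif1* (-0.59) and *C1qa* (-0.41). All 5 pigment epithelium genes were higher (median 0.11), with *Rpe65* (0.78), *Tyrp1* (0.19) and *Ttr* (0.11) as the largest. Without CTR2 and ONC4 their median was -0.02. *Ttr* (-0.07), *Dct* (-0.51) and *Rgr* (-0.02) were then lower, and *Rpe65* (0.88) and *Tyrp1* (0.06) higher. Lens genes, 1 higher and 6 lower, had a median of -0.41, and their largest were *Cryaa* (-0.95), *Crybb3* (-0.51) and *Crybb2* (-0.48). Small values were seen in 4 horizontal cell genes (1 higher, median -0.06; *Onecut2* 0.17, *Lhx1* -0.16, *Onecut1* -0.10). The same held for 4 smooth muscle genes (2 higher, median -0.02; *Tagln* -0.12, *Acta2* 0.11, *Myh11* -0.09) and 2 corneal epithelium genes (1 higher, median -0.02; *Krt14* -0.05, *Krt12* 0.01). With the array as a block, 3 photoreceptor and 2 Müller markers were called, all lower in ONC, in a fit that called 7.44% of all genes, 743 of the 1221 being lower. Lens genes stood out in CTR2, where their median was 1.22. Microglial genes were lowest in CTR2, ONC1 and ONC3, at -0.38, -0.32 and -0.40, and highest in CTR3 and CTR4, at 0.44 and 0.56. That order resembles the one of *Gal* in part, and the share of microglial cells in the *Gal* level was not tested.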

How the data were processed

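RNA of 8 retinas was measured on 4 two-color Agilent arrays. The authors deposited the intensity of each spot and channel as written by Agilent Feature Extraction (11.1.19.1 in the submitters' processing notes, 12.0.3.1 in the file headers): mean foreground, median local background and a processed signal, for which the software had removed background and spatial trends and balanced the dyes. Every channel was assigned by its label, and no column was left without a sample.

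Of 44254 spots, 42877 are not controls. A spot was dropped if its own outlier flag was set or if foreground was under 2 times background in 1 channel or more, which kept 27587 spots of 18747 probes for 16422 genes. Median foreground ranged from 218.1 in ONC4 to 626.0 in CTR2, and 66.8% to 79.4% of spots were well above background. After subtraction of background came loess within each array and centering of each channel on its median, and log2 values were averaged first over the spots of each probe, then over the probes of each gene. The test between labels was that of limma (version 3.58.1, R 4.3.3, functions lmFit and eBayes, unpaired as in the methods, two-sided, Benjamini-Hochberg over all genes), tested first on simulated data, and with exact permutation tests over 70 assignments. Tables and figures used Python 3.11.15, pandas 2.3.3, numpy 2.4.6 and matplotlib 3.10.9.

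The labels put retinas of the same number on 1 array. Their deviations from the label means correlated at 0.18, 0.55, 0.40 and 0.48 over genes for the 4 pairs, so the array was used as a replicate block in a second fit. The highest value with another channel was 0.157 for pair 1, near its own, and 0.012, 0.076 and 0.001 for pairs 2 to 4. Channels of an array also share its spots and its loess fit, and whether the retinas were paired was not tested.

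All 10 members are named. From each other list, genes called and up to 3 of the largest absolute log2 fold changes among those passing the filter are named, and for members spanning at least 1 log2 unit the 3 genes of smallest root mean square difference. Members and lists were chosen with earlier results of these data known. A listed symbol was matched to the array by name or by a single RefSeq synonym. Genes named outside this rule, among them receptors that did not pass, were chosen after their values were seen. Alternatives were median centering alone, Aquantile, the processed signal, normexp with an offset of 50, other filters, the replicate block, channels left out, single probes and the methods' t-test. Use of the background's outlier flags was added after seeing the data.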

Additional observations from a re-analysis of the deposited data

Results flagged for a closer look

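Each of the 10 genes was checked in both labels for a channel that lies far from the other three, 20 groups in all, and 1 was found. *Adcyap1* was at -3.18 in ONC2, while the other ONC channels lay between -3.09 and -3.07. Its gap was 0.865 of the range of that group. Chance flags about 1 in 20 groups. The gap is small on the log2 scale and concerns the dimmest of the 10 genes.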

How the results depend on the processing

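Of 177 log2 fold changes of the 10 genes under other settings, 163 kept their direction and their side of the threshold, 5 became called and 9 changed sign, and the cause was not tested. Calls were gained by *Tacr1* at 0.43 with median centering alone (adjusted p = 0.0115), at 0.38 with Aquantile (0.0467) and at 0.38 with the replicate block (0.0342), by *Adcyap1* at 0.65 with median centering alone, and by *Gal* at -1.98 without CTR2 and ONC4. Over all settings the adjusted p by limma ranged from 0.0115 to 0.427 for *Tacr1*, from 0.0138 to 1.0 for *Adcyap1* and from 0.0244 to 0.995 for *Gal*. *Crh* changed sign with the processed signal (-0.0107), without CTR2 and ONC4 (-0.15) and by its dimmer probe (-0.18), and *Tac1* by the probe printed above (-0.0632). The processed signal also moved *Sst* to -0.34, *Vip* to -0.18 and *Npy* to -0.06, with the sign kept. With 1 channel left out, *Gal* ranged from -1.53 to -0.58, *Tacr1* from 0.35 to 0.40, *Vip* from -0.46 to -0.25, *Cck* from -0.28 to -0.05, *Npy* from -0.20 to -0.06, *Penk* from 0.02 to 0.12 and *Adcyap1* from 0.05 to 0.21. *Tac1* ranged from -0.0514 to 0.20 (without CTR1 and ONC1), *Crh* from -0.0417 (without ONC4, and -0.0372 without CTR2) to 0.14, and *Sst* from -0.22 to 0.0352 (without ONC1, and 0.0008 without CTR3).

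Of the 10 genes, 2 were called with median centering alone, beside 3128 of all 16422 genes, and 1 with Aquantile, beside 405. With the replicate block 1 was called, beside 7.44% of all genes, and without CTR2 and ONC4 also 1, beside 2.33%. The methods' t-test gave 1 before adjustment, beside 16.3% of all genes, and 1 when joined to the fold threshold, beside 3.04%. After Benjamini-Hochberg it gave 0, and 0 over all genes. The block changed no other call among them. Exact permutation p under 0.05 were found for 1 gene, for 2 with median centering alone, for 1 to 2 with 1 channel left out, and for 0 without CTR2 and ONC4, where it cannot occur.

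All genes called numbered 80, of which 46.2% were higher in ONC. The count was 3128 with median centering alone (70.4% higher), 405 with Aquantile, 21 with the processed signal, 0 with normexp (2533 at an unadjusted p under 0.05) and 0 by limma with normexp and no filter together (1958), 1221 with the block and 383 without CTR2 and ONC4 (52.0% higher). It was 2676 by the methods' t-test, 499 with the fold threshold and 0 after adjustment, and from 0 to 15 with 1 channel left out, while 2081 to 3247 genes then had an unadjusted p under 0.05. When the background's outlier flags were used too, a setting chosen after seeing the data, 14644 genes were tested, 113 were called, and *Sst* was no longer measured. Signal over background limits *Adcyap1* and *Crh* most.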
